A study of Mus musculus with 2 samples.

Results

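The hyperpolarization-activated channel subunits Hcn2, Hcn3 and Hcn4 and their brain auxiliary subunit TRIP8b, encoded by Pex5l, were described in frontal cortex of the mouse. These 4 genes were taken by identifier from the 43346 annotated genes of each library, together with their 19 transcripts among 129984 transcript entries. The material was frontal cortex of adult C57BL/6J mice aged 8 weeks, with no mutation, transgene or treatment in the labels, and it formed 1 group of 2 biological replicates. Both libraries hold polyadenylated RNA longer than 200 nt that was also depleted of ribosomal RNA, read as stranded pairs of 101 nt. The labels describe littermates of both sexes, give the sex as pooled, and name a single donor entry for both replicates. The sex-linked RNA described below differs between the libraries, and how much of their spread is technical was not tested. No contrast between conditions can be made within a single group, and no p-value is given. The exact sign-flip test over 2 libraries cannot go below 0.5. Levels are deposited TPM, a share of transcripts corrected for length, and the bounds beside them are the deposited interval, whose level the files do not state.

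HCN channels open when the membrane is hyperpolarized and carry a mixed sodium and potassium current, known as Ih in neurons and as the funny current in the heart. Binding of cyclic AMP to a domain near the C terminus eases their opening, most strongly in HCN2 and HCN4. TRIP8b holds on to the cyclic nucleotide-binding domain and to the last residues of the channel, lowers the response to cyclic AMP, and moves channels to or from the surface depending on which N terminus its splice form carries. In brain, HCN2 is widespread and strong in thalamus, HCN4 is best known from thalamus and from the sinoatrial node, and HCN3 is the least studied of the 3.

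The subunits resembled each other more in the inner coding exons than in the first and last coding exons. The leading transcripts of Hcn2, Hcn3 and Hcn4 each had 8 coding exons, and coding exons 3 to 7 had the same length in all 3 genes. Coding exon 3, which encodes part of the membrane-spanning core, was the exon of equal length with the largest share of identical bases, 126 of its 162 positions. It is shown for that share over all 3 genes, although single pairs were closer in other exons, with the bases that are the same in all 3 genes in capitals. It lies at chr10:79726147-79726308 on the plus strand for Hcn2, chr3:89151425-89151586 on the minus strand for Hcn3 and chr9:58853383-58853544 on the plus strand for Hcn4 (mm10, GENCODE M21 transcripts).
Hcn2 coding exon 3: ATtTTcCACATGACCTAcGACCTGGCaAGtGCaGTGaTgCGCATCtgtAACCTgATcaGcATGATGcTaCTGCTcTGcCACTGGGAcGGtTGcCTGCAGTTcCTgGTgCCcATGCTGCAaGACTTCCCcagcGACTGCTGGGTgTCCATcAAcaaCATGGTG
Hcn3 coding exon 3: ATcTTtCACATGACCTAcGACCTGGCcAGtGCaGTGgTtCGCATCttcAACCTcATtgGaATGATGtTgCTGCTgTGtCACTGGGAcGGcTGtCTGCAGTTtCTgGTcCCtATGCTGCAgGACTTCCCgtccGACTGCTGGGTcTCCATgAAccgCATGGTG
Hcn4 coding exon 3: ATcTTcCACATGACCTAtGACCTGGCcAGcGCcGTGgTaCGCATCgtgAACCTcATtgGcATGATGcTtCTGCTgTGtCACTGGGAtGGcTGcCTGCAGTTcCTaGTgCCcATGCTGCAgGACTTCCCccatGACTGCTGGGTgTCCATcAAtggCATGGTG

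Over the whole coding sequence, aligned end to end, identity was 62.8% between Hcn2 and Hcn3, 57.3% between Hcn2 and Hcn4 and 50.2% between Hcn3 and Hcn4. The first and last coding exons set the genes apart, with 551, 275 and 785 coding bases in exon 1 and 680, 698 and 1460 in exon 8 for Hcn2, Hcn3 and Hcn4. The longest run of identical bases between any 2 of the leading transcripts was 33 bases, well under the read length of 101. The deposited posterior SD of the gene count was 0 for all 4 members in both libraries, as it was for 86.7% of the 14599 genes averaging at least 1 TPM, so the gene counts of the members were not split by estimation. The final coding bases are shown because TRIP8b is known to grip the end of the channel, with the last 9 bases before the stop codon in capitals. They end at position 79735537 of chromosome 10 for Hcn2 and 58860760 of chromosome 9 for Hcn4, and at the low end of chr3:89147602-89147631 for Hcn3, on the strands given above.
Hcn2 last 30 coding bases: tctgcgcgctcgcgcctctctTCCAACTTG
Hcn3 last 30 coding bases: cccagaggtccccaaatttctGCCAACATG
Hcn4 last 30 coding bases: ccagtacgctccaaactgccgTCTAATTTA
Hcn2 and Hcn4 shared 6 of these 9 bases, yet all 3 final codons were synonymous. Hcn3 shared 7 of 9 bases with Hcn2 and 4 of 9 with Hcn4, and 1 of its 3 final codons was synonymous with theirs.

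Library totals were 106084891 expected counts (replicate 1) and 90476207 (replicate 2), and annotated genes made up 101771589 and 86854784 of them. Markers of cortical excitatory neurons, Slc17a7, Camk2a and Neurod6, were present in both libraries with summed levels of 1174 and 1130 TPM. Genes listed as markers of regions outside the cortex were present too, with no gene of these lists at 0. Whether their RNA came from tissue outside the cortex was not tested. The olfactory bulb list (Th, Doc2g and Eomes) summed to 233 and 242 TPM, the striatum list to 58.2 and 83.7 TPM and the thalamus list to 24.4 and 23.0 TPM, and their part in the levels of the members was not tested. The replicates parted by sex-linked RNA. Xist, the RNA that coats the inactive X, was counted 107 times in replicate 1 and 77696 times in replicate 2, whereas the 4 Y-linked genes tested had 1777 to 7150 counts in replicate 1 and 1 to 3 in replicate 2. This goes against the label of pooled sexes, and against 1 shared source of RNA for both libraries. Sex and replicate cannot be told apart in any difference between the libraries below.

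Hcn2 was the most abundant of the 3 subunits (ENSMUSG00000020331.5, chr10:79716634-79736108, plus strand). Replicate 1 gave 61.9 TPM (interval 60.5 to 62.4, from 15274 counts) and replicate 2 gave 60.9 TPM (59.4 to 61.4, from 13598 counts), 61.4 ± 0.679 TPM (SD, n = 2). The intervals of the libraries overlapped, and 87.2% of the 13234 nuclear protein-coding genes at 1 TPM or more lay under it.

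Hcn3 was the second subunit by level (ENSMUSG00000028051.6, chr3:89146074-89160196, minus strand). It reached 19.0 TPM (interval 18.0 to 20.0, 4619 counts) in replicate 1 and 16.4 TPM (15.5 to 17.3, 3914 counts) in replicate 2, 17.7 ± 1.84 TPM (SD, n = 2). Replicate 2 was the lower library and the intervals did not overlap. Of the genes at 1 TPM or more, 57.3% lay under Hcn3, and the median of that set was 13.9 TPM.

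Hcn4, the main pacemaker subunit of the heart, was the scarcest (ENSMUSG00000032338.8, chr9:58823412-58863175, plus strand). It had 2.87 TPM (interval 2.66 to 3.04, 852 counts) in replicate 1 and 2.47 TPM (2.27 to 2.64, 664 counts) in replicate 2, 2.67 ± 0.283 TPM (SD, n = 2). The libraries stood apart by their intervals, replicate 2 being lower, and 11.7% of the genes at 1 TPM or more lay under it. In a bulk library, fewer cells of a type and less RNA per cell cannot be told apart, so a low level of Hcn4 does not say how many cells hold it. Its deposited transcript model was 3798 nt long whereas the GENCODE M21 model has 6118 nt. The other 18 transcripts of the 4 genes had the same length in both, and what the shorter model does to the TPM of Hcn4 was not tested.

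Pex5l, the gene of TRIP8b, was second to Hcn2 among the 4 genes (ENSMUSG00000027674.12, chr3:32949408-33143247, minus strand). Its level was 40.5 TPM (interval 39.2 to 41.6, 8934 counts) in replicate 1 and 31.4 TPM (30.4 to 32.4, 6127 counts) in replicate 2, 36.0 ± 6.40 TPM (SD, n = 2). This was the widest relative gap between the libraries among the members, with replicate 2 lower and the intervals apart. Its paralog Pex5, the import receptor for peroxisomal matrix proteins, had 32.1 and 27.3 TPM, 29.7 ± 3.39 TPM (SD, n = 2).

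**Figure D1:**
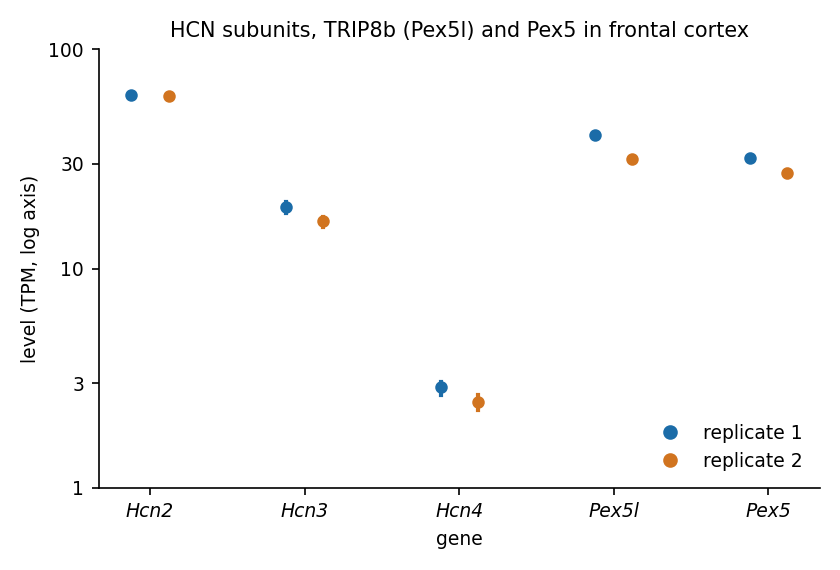
Level in TPM (log axis) of the 3 HCN subunit genes, Pex5l and its paralog Pex5 in replicate 1 and replicate 2, with a point for each library and a bar for its deposited interval. Hcn2 sits at 61.9 and 60.9 TPM and Hcn4 at 2.87 and 2.47 TPM, with Pex5l, Pex5 and Hcn3 in between.

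The order Hcn2, Pex5l, Hcn3, Hcn4 was the same in both libraries, and for each neighbouring pair the deposited intervals did not overlap within either library. Hcn2 exceeded Pex5l by 0.78 ± 0.24 on the log2 scale (SD, n = 2), which was 1.53-fold in replicate 1 and 1.94-fold in replicate 2. Pex5l exceeded Hcn3 by 1.01 ± 0.11. Hcn3 exceeded Hcn4 by 2.73 ± 0.0032, a ratio of 6.63 and 6.65 in the libraries on deposited TPM. From end to end, Hcn2 exceeded Hcn4 by 4.53 ± 0.14, or 21.6-fold and 24.7-fold. Pex5l exceeded Pex5 by 0.27 ± 0.09, the smallest of the 7 ratios taken, with the intervals apart in both libraries.

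Of the summed TPM of Hcn2, Hcn3 and Hcn4, Hcn2 took 73.9% in replicate 1 and 76.3% in replicate 2. Hcn3 took 22.7% and 20.6%, and Hcn4 3.43% and 3.10%. Set against this sum, 83.8 and 79.8 TPM, Pex5l amounted to 0.483 in replicate 1 and 0.394 in replicate 2 transcripts per subunit transcript, 0.439 ± 0.0632 (SD, n = 2). A ratio of transcripts is no ratio of proteins in the channel complex.

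Differences between the replicates are given as log2 of replicate 2 over replicate 1 on CPM (counts per library total) scaled by TMM, with an exact conditional binomial interval that covers counting error only. Pex5l had the lowest ratio of the members, −0.26 (−0.31 to −0.21), and 8.34% of the 14599 genes had a lower one. Hcn2 stood at 0.12 (0.08 to 0.15), Hcn3 at 0.04 (−0.02 to 0.11) and Hcn4 at −0.08 (−0.22 to 0.07). The counting intervals of Hcn3 and Hcn4 included 0. The middle portion of all genes, between the 25th and 75th percentiles, spanned −0.10 to 0.11, with a median of 0.00, so Pex5l lay outside it, Hcn2 just above it, and Hcn3 and Hcn4 within it.

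No member passed a log2 fold of 0.5 in either direction, a fold that 2.85% of all genes passed downward and 2.37% upward. By deposited TPM intervals, Hcn3, Hcn4 and Pex5l were lower in replicate 2 with intervals apart. That is 3 of 4 members against 42.1% of all genes, while 0 members against 6.63% of genes were higher with intervals apart. TPM runs lower in replicate 2 for genes at large, with a median log2 ratio of −0.13, and on that scale the members had ratios of −0.02 for Hcn2, −0.21 for Hcn3, −0.22 for Hcn4 and −0.37 for Pex5l. The ratios of Hcn2 and Hcn3 thus change sign between the TMM and the TPM scale, that of Hcn3 also by library size, at −0.010, and that of Pex5l does not. On the TMM scale, where the median gene stood at 0.00, microglial markers were lower in replicate 2 in 3 of 3 genes (summed 82.4 TPM in replicate 1 and 54.0 TPM in replicate 2). Oligodendrocyte markers (1447 and 1781 TPM), striatal markers and olfactory bulb markers were higher in 3 of 3. Most of the striatal sum was Ppp1r1b, at 53.7 and 77.0 TPM, and the intervals of Drd1 overlapped. The other cell type and region lists held ratios of both directions. The part of these markers in the ratios of the members was not tested.

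**Figure D2:**
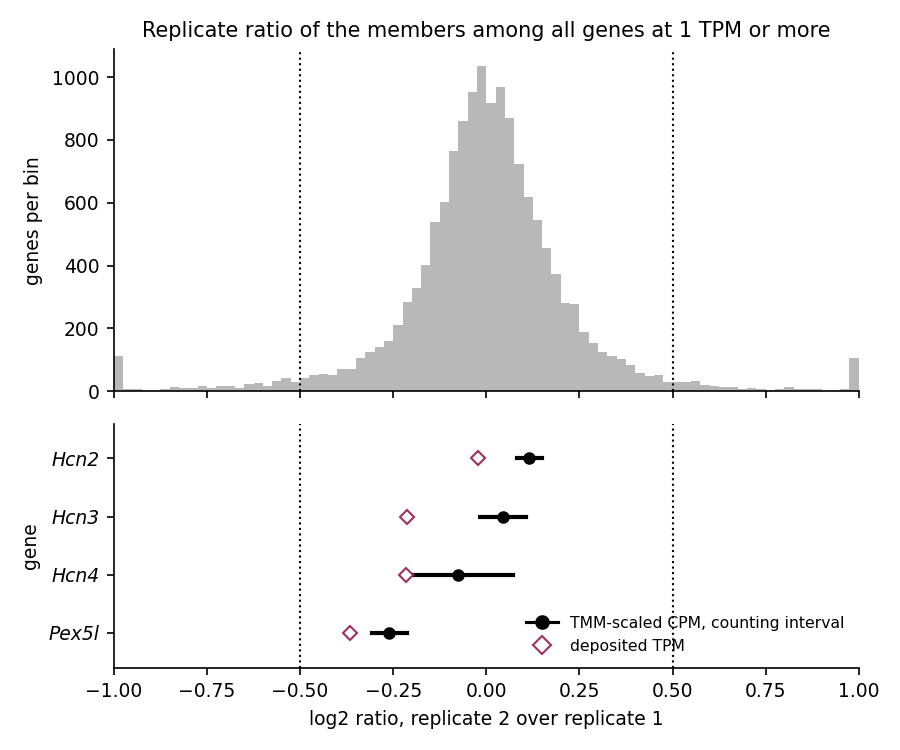
Top, number of genes per bin of log2 ratio of replicate 2 over replicate 1 for the 14599 genes averaging at least 1 TPM, with genes beyond 1 in either direction gathered in the outermost bins and dotted lines at a log2 fold of 0.5. Bottom, the members' ratios on TMM-scaled CPM with counting intervals (filled) and on deposited TPM (open), where Pex5l at −0.26 lies to the left of the other 3 and all 4 lie inside the dotted lines.

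Hcn2 was read almost wholly as 1 of its 2 annotated transcripts. Hcn2-202 took 97.2% of the TPM of the gene in replicate 1 and 98.6% in replicate 2, while Hcn2-201 had 1.70 and 0.84 TPM. Both have a coding sequence of 2589 bases, or 863 codons, in models of 3195 nt for Hcn2-202 and 3089 nt for Hcn2-201. Among the 6268 genes that averaged 10 TPM and have several transcripts, the median leading share was 65.8%, and 93.1% of them had a smaller leading share than Hcn2. Hcn4 has a single annotated transcript, so it has no share to give.

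Hcn3 had a single coding transcript among 4. Hcn3-201, of 4002 nt and 779 codons, reached 14.2 TPM in replicate 1 and 13.4 TPM in replicate 2, which was 74.9% and 81.7% of the TPM of the gene. The retained-intron transcript Hcn3-202 followed with 4.08 and 1.79 TPM, and the other retained-intron transcript, Hcn3-203, had 0.52 and 1.21 TPM. The first was higher in replicate 1 with intervals apart (2.97 to 5.09 against 0.884 to 2.71 in replicate 2), whereas the intervals of Hcn3-203 overlapped. The processed transcript Hcn3-204 had 0.17 TPM in replicate 1 and was listed at 0 in replicate 2.

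The size of the noncoding share of Hcn3 rested on the length correction. Hcn3-202 is 533 nt long, with an effective length of 325 nt in replicate 1 and 317 nt in replicate 2, and its TPM came from 110 and 42.6 expected counts. By share of expected counts, Hcn3-201 took 96.8% and 97.3% of the gene. Replicate 1 exceeded replicate 2 by 2.60 TPM in the gene as a whole, by 0.84 TPM in the coding transcript, whose intervals were just apart, and by 2.29 TPM in Hcn3-202. The change of the leading share of Hcn3, 6.79 points, stood beside a median of 2.76 points over the 6268 genes.

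Pex5l spread its RNA over 12 annotated transcripts, 9 of them protein-coding, from a gene of 194 kb. These begin at an upstream first exon (4 transcripts), in a cluster of first exons 60.2 kb farther downstream (7 transcripts) or inside the gene (1 transcript). The exons that distinguish them are shown because the N terminus of TRIP8b is the part by which its splice forms act differently on channels. Start codons are in capitals, and the downstream exon is printed as in Pex5l-205. Its second run of capitals, at position 76 as printed, is the start codon of Pex5l-204. The Pex5l-204 form of this exon begins later, 61.244 kb from the 5′ end of the gene against 61.179 kb, and so lacks the first start codon. The 2 cassette exons, which some transcripts include and others skip, are printed without capitals. The positions are chr3:33142849-33142869, chr3:33081976-33082068, chr3:33080465-33080536 and chr3:33024696-33024800, in the order of the lines, on the minus strand of mm10.
Pex5l upstream first coding exon: ATGtaccagggacacatgcag
Pex5l downstream first coding exon: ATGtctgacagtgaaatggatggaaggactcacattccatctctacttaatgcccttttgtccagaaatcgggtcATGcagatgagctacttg
Pex5l cassette exon 1: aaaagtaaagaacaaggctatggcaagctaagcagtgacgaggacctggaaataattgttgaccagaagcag
Pex5l cassette exon 2: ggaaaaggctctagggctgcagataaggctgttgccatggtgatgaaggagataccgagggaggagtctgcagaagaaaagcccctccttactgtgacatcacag
Cassette exon 1 has 72 bases and cassette exon 2 has 105, both multiples of 3, and both precede an exon of 112 bases that 9 of the 12 transcripts share.

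**Figure D3:**
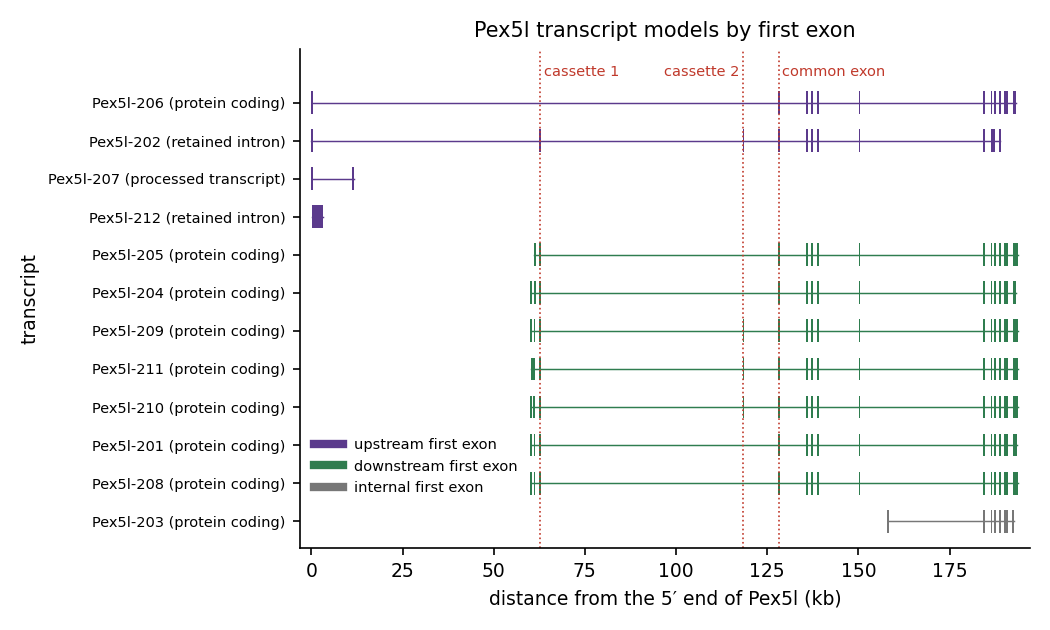
Exons (boxes, drawn at least 0.5 kb wide) and introns (lines) of the 12 Pex5l transcript models against distance in kb from the 5′ end of the gene, coloured by first exon and ordered within each colour by mean TPM, with dotted lines at the cassette exons and at the exon that 9 transcripts share. Pex5l-206 reaches from the upstream start to the shared exon without a cassette exon, and the 7 models of the downstream start all hold cassette exon 1.

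Transcripts of the downstream start summed to 24.4 TPM in replicate 1 and 17.7 TPM in replicate 2, 60.4% and 56.2% of the gene. Those of the upstream start summed to 15.5 and 13.8 TPM, or 38.2% and 43.8%, and the internal start had 0.58 TPM in replicate 1 and was listed at 0 in replicate 2. The downstream start thus led in both libraries. Among protein-coding transcripts alone it took 73.5% and 71.2%, since 3 of the 4 upstream transcripts have no coding sequence in the annotation. All 4 upstream models end short of the farthest 3′ end, Pex5l-206 by 546 bases and Pex5l-202 by 4929. Of the downstream models, Pex5l-204 ends 546 bases short, Pex5l-201 226 bases short, and the rest reach it. Assignment of fragments to a start thus also drew on the 3′ end of the models. By expected counts the downstream start took 68.4% and 65.0%.

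By coding sequence, the 9 protein-coding transcripts encode 5 different products. Pex5l-205, with Pex5l-201 and Pex5l-208 of the same 615 codons, made up 13.6 TPM in replicate 1 and 11.7 TPM in replicate 2, nearly all of it Pex5l-205 at 13.3 and 11.2 TPM. Pex5l-206, of 567 codons from the upstream start, had 8.23 and 7.16 TPM. Pex5l-209, Pex5l-210 and Pex5l-211, whose 650 codons include cassette exon 2, summed to 6.91 and 3.77 TPM. All 3 of these products had the lower value in replicate 2. Pex5l-204, of 591 codons, has a shorter form of the downstream exon that holds only the second of the marked start codons. A later exon of it begins at 137.201 kb rather than the 137.204 kb of Pex5l-205. Pex5l-204 had 3.98 TPM (interval 3.20 to 4.60) and 2.19 TPM (1.63 to 2.78), and its intervals were apart.

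Cassette exon 2 was in 30.02% of the TPM of transcripts that reach the shared exon in replicate 1 and in 24.1% in replicate 2, 27.1 ± 4.15% (SD, n = 2). Cassette exon 1 was in 77.6% and 74.2%, 75.9 ± 2.44% (SD, n = 2). Only Pex5l-206 reaches the shared exon without cassette exon 1, so this share was set by the share of Pex5l-206. It is no separate measure of exon inclusion. The most used path ran from the downstream start through cassette exon 1 alone, at 47.6% and 50.1%. The upstream start joined straight to the shared exon followed at 22.4% and 25.8%, and the downstream start with both cassette exons took 18.8% and 13.6%. The upstream start with both cassette exons, 11.2% and 10.6%, is annotated only in Pex5l-202, a retained-intron model without a coding sequence. No annotated model joins the upstream start to cassette exon 2 without cassette exon 1, and forms outside the annotation have no value here. Any counted fragments of such forms fell to annotated models, so the shares above are shares among annotated models only.

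Of the 3 noncoding Pex5l models, 2 had the higher value in replicate 2. Pex5l-207, a processed transcript near the upstream start, had 2.14 TPM in replicate 1 and 2.59 TPM in replicate 2, and the retained-intron model Pex5l-212 had 0.95 and 1.08 TPM. Their intervals overlapped between libraries, as did those of Pex5l-205 and Pex5l-206. Intervals were apart for Pex5l-202, with 4.14 TPM (3.77 to 4.50) and 2.93 TPM (2.60 to 3.24), and for Pex5l-204 above. Pex5l-210 was at 1.71 TPM in replicate 1 and listed at 0 in replicate 2, but with intervals of 0.787 to 2.58 and up to 1.03 that overlapped. Its posterior SD of 132 counts beside 484 expected counts shows how uncertain the split between near-identical models was, although the gene count itself had none. The leading share of Pex5l, 32.9% and 35.7% for Pex5l-205, exceeded that of 8.54% of the 6268 genes.

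**Figure D4:**
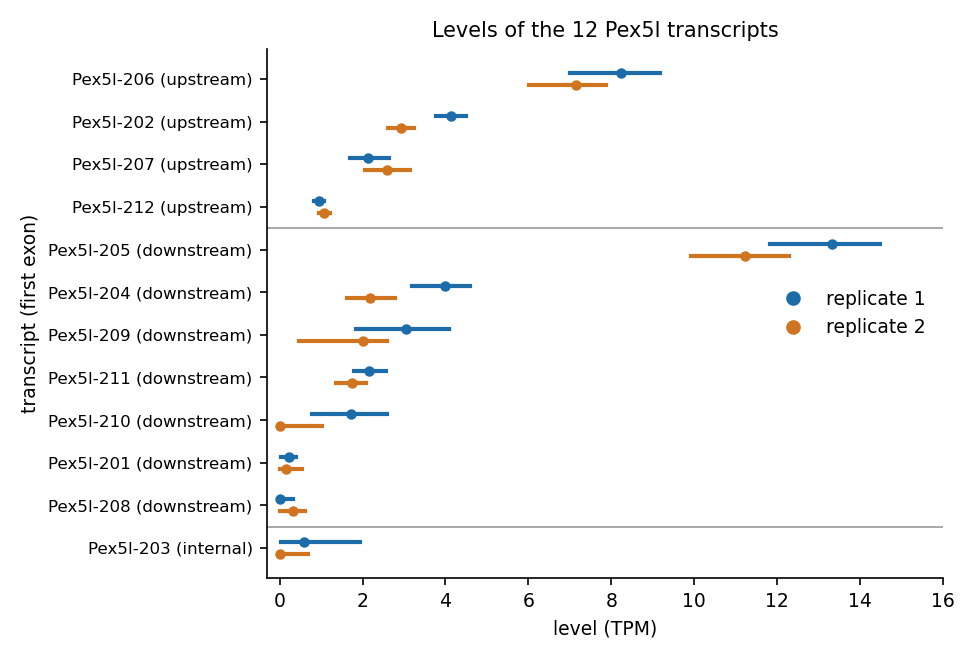
Level in TPM of the 12 Pex5l transcripts in replicate 1 and replicate 2, with points for the deposited TPM and bars for the deposited interval, grouped by first exon. Pex5l-205 leads at 13.3 and 11.2 TPM, followed by Pex5l-206 at 8.23 and 7.16 TPM, and bars of the 2 libraries are apart for Pex5l-202 and Pex5l-204.

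Genes that overlap or adjoin the members are given because their reads lie close by. The 3′ end of Hcn3 overlaps Pklr, the pyruvate kinase of liver and red blood cells, by 711 bp on the opposite strand, and Pklr had 0 and 1 counts. Polrmt, the mitochondrial RNA polymerase, lies on the opposite strand with its 3′ end 14 bases beyond the 3′ end of Hcn2. It had 31.0 ± 0.566 TPM (SD, n = 2). Bsg, which encodes the membrane protein basigin, lies 4664 bases from Hcn2 on the same strand, with 583 and 605 TPM. The antisense genes 4930419G24Rik and Gm37459, which overlap Pex5l, had 0 and 2 counts and 10 and 4 counts. Gm37443 and Gm19445, predicted genes on the strand of Pex5l within its introns, had 118 and 100 counts and 154 and 141 counts. The labels describe the libraries as stranded.

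Genes of the same pathway are described by lists, with counts and medians that are a description only. Beside them, 13234 of 21461 nuclear protein-coding genes averaged at least 1 TPM. Of the 14599 genes at that level, 2.85% passed the fold downward and 2.37% upward. The lists are too small for their counts to be told from these shares. Of 14 genes whose proteins are known to bind or modify HCN channels, 11 reached a mean of 1 TPM, with a median log2 replicate ratio of 0.02 against 0.00 over all genes, 1 past the fold downward and 0 upward. The membrane tether Vapa led at 92.6 and 92.0 TPM, and Flna, which crosslinks actin, had 85.9 and 64.5 TPM. Ptpra, a receptor tyrosine phosphatase, was the nearest in level to a member, at 65.6 and 55.4 TPM beside Hcn2. Lrmp, an endoplasmic reticulum protein that modulates HCN4, had the lowest ratio, −0.57, and Grasp, the scaffold also named tamalin, the highest, 0.35.

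Of the list of peroxisomal import genes and TRIP8b partners, 5 of 5 genes reached 1 TPM, with 0 past the fold and a median log2 ratio of −0.09. Pex5 led, and Pex14, the docking protein of the peroxisome membrane, stood at 22.0 and 21.8 TPM. Pex7, the second import receptor, had the lowest ratio of this list, −0.14. Pex5l itself, at −0.26, was below all 5.

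Adenylyl cyclases make the cyclic AMP that HCN channels bind. Of 10 genes, 9 reached 1 TPM, 0 passed the fold, and the median log2 ratio was 0.00. By the mean of the libraries Adcy2 led, at 55.4 and 51.5 TPM, and the calmodulin-stimulated Adcy1, at 55.9 and 46.1 TPM, was above it in replicate 1. Adcy5 was the nearest to a member, with 34.8 and 32.2 TPM beside Pex5l. The ratios of the list ran from −0.29 for Adcy7 to 0.10 for Adcy8.

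Channels with a related cyclic nucleotide-binding fold differed in level by family. None of the 6 cyclic nucleotide-gated channel genes of photoreceptors and olfactory neurons reached a mean of 1 TPM. The highest were Cnga4 with 0.90 and 0.70 TPM and Cnga2 with 0.36 and 0.74 TPM. Of the 8 KCNH potassium channel genes, 7 reached 1 TPM, 0 passed the fold downward and 1 upward, with a median log2 ratio of 0.15, and on deposited TPM 0 passed it. Kcnh3 led at 75.03 and 86.2 TPM, above Hcn2, and Kcnh2 had 34.0 and 31.9 TPM, near Pex5l. The lowest ratio was −0.16 for Kcnh1 and the highest 0.50 for Kcnh5, which was 0.37 on deposited TPM. With 2 libraries there is no measure of likeness in pattern, so no gene is named for following a member.

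**Figure D5:**
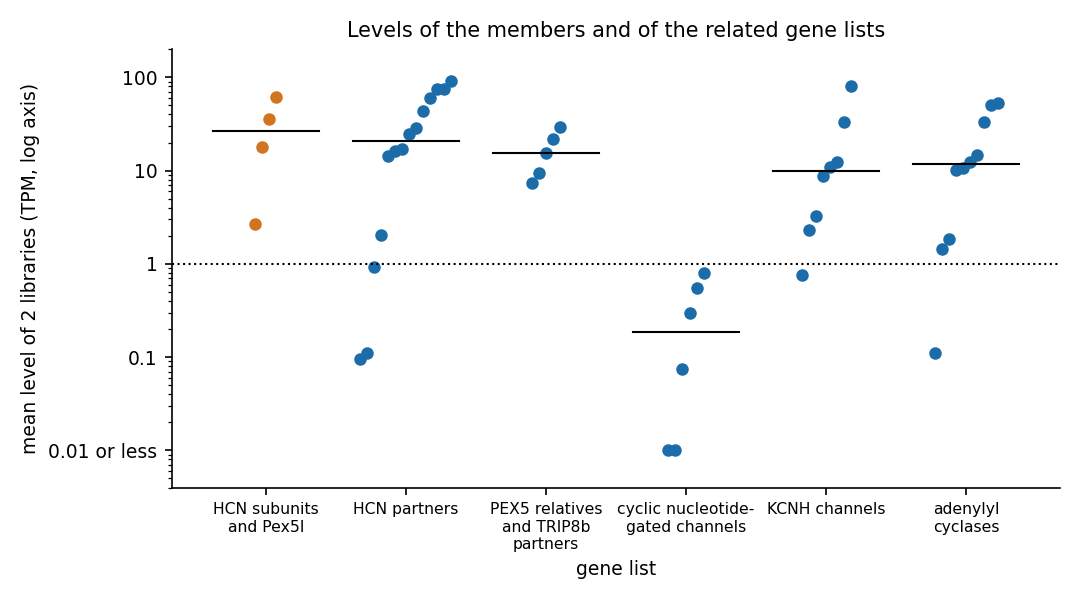
Mean level over 2 libraries in TPM (log axis) of the 4 members and of the genes of 5 related lists, with a point for each gene, a line at the median of each group and a dotted line at 1 TPM. Hcn4 at 2.67 TPM is the lowest of the members, and all 6 cyclic nucleotide-gated channel genes lie under the dotted line, 2 of them drawn at 0.01 TPM or less.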

How the data were processed

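Gene-level and transcript-level tables were deposited for each of 2 libraries, made on mm10 with GENCODE M4 per the deposited text descriptions. Their columns are laid out like RSEM output, and which aligner and quantifier were run is not given in the sources used here. Per the file headers, the deposited values are expected counts (estimated fragments), TPM, FPKM, isoform percent, posterior means with SDs, and interval bounds of TPM. TPM is over all entries, spike-ins included. Names, exons, coordinates and sequences came from GENCODE M21 (mm10), by identifier without version.

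Rounded expected counts without spike-ins were scaled by TMM (factors 1.02 and 0.981) in edgeR 4.0.16 under R 4.3.3 after filterByExpr (18418 rows kept), and replicate ratios carry a prior count of 2. DESeq2 1.42.0 size factors were an alternative. The ratio step was tested on simulated counts that carried Poisson counting error only. That test asks whether a fold placed in some genes is returned, and does not bear on the spread between real libraries. Counting intervals are exact conditional binomial at 95%. They cover counting error only, since PCR copies cannot be told from independent molecules. Pex5l transcripts were grouped by first exon and cassette exon in pandas 2.3.3, and coding sequences were aligned globally in Biopython 1.88. Genes count as measured at a mean of 1 TPM, and for isoforms at 10 TPM.

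Members and lists were chosen with earlier results of these data known. Named genes are the members, the 2 most abundant genes of each list, its highest and lowest replicate ratio, and the gene nearest to a member in TPM. The neighbouring genes and the grouping of Pex5l transcripts by coding sequence were chosen after values were seen. Alternatives covered posterior means, FPKM, undivided counts, pseudocounts, other scalings, other filters and each library alone.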

Additional observations from a re-analysis of the deposited data

How the results depend on the processing

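All 7 ratios between genes kept their direction under every alternative run, and no member passed the log2 fold of 0.5 under another scaling. With 1 replicate left out, levels ran from 60.9 to 61.9 TPM for Hcn2, 16.4 to 19.0 for Hcn3, 2.47 to 2.87 for Hcn4 and 31.4 to 40.5 for Pex5l. TPM rescaled to nuclear protein-coding genes came to 124, 35.9, 5.41 and 72.7 in the same order.
Without division by length, the log2 ratios were 0.80 for Pex5l over Hcn3, 2.50 for Hcn3 over Hcn4, 4.26 for Hcn2 over Hcn4, 3.30 for Pex5l over Hcn4 and 0.43 for Pex5l over Pex5. Hcn3 over Hcn4 was 2.74 with posterior means and 2.69 with a pseudocount of 0.1 TPM. A pseudocount of 1 TPM gave 2.35 for Hcn3 over Hcn4, 4.09 for Hcn2 over Hcn4 and 3.32 for Pex5l over Hcn4.
The replicate ratio of Hcn2 was 0.061 by library size and 0.074 by the spike-in total, and turned to −0.023 on deposited TPM. Hcn3 moved to −0.21 on TPM, and Pex5l to −0.32 by library size and −0.37 on TPM. On the TPM scale the median gene stands at −0.13, which is part of these shifts by construction.
Genes past the fold downward numbered 809 on TPM, 1507 at a minimum of 0.1 TPM, 72 at 10 TPM, 3666 with no filter and 108 at a log2 fold of 1, against 416. Upward they numbered 1266, 90, 3099 and 103 under the last 4 settings, against 346, and with intervals apart 954, 141, 1038 and 150, against 526.
By share of counts, the leading transcript took 97.1% in Hcn3 and 37.8% in Pex5l. Among protein-coding transcripts alone, the leading share was 100% for Hcn3 and 42.7% for Pex5l, and in Pex5l the downstream start took 72.3%, cassette exon 1 73.0% and cassette exon 2 18.2%. No paired analysis was possible because there is 1 group. Depth limits Hcn4 most, with 852 and 664 counts.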
